A study of Drosophila melanogaster with 15 samples.

Results

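In larvae of the third instar of Drosophila melanogaster, 29 genes known only by a CG number had array signals that kept all 9 arrays of mutant larvae apart from all 6 arrays of wild type larvae. On the mutant arrays 14 of these genes were higher and 15 were lower. They came from 4911 probe sets with exactly 1 gene symbol made of CG and digits, which stand for 4482 genes, on an array with 13966 probe sets other than controls. Members were selected on their measured signals. All mutant signals had to lie above, or all below, every wild type signal. The mean signal of the higher side had to reach 300, and the means of wild type larvae given bacteria and given saline had to differ by less than 1.5-fold. Mutant and wild type signals thus chose the members, so those differences are described here and carry no test.

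Wild type larvae, in 2 groups, received an injection of either phosphate buffered saline (PBS) or Escherichia coli suspended in PBS. The labels do not name their strain, and the wild type genotype comes from the series design. The other 3 groups carried the Relish allele E20, the Dif allele 1 (Dif1) or the dorsal allele 1 (Dorsal1) and were given E. coli in the treatment field of the labels, although ctr stands in the title of every mutant array, as it does for wild type with PBS, and the Dif treatment text speaks of control flies. Each group had 3 arrays, and each array held RNA from 20 pooled larvae, harvested 2 h after about 0.1 microliter had been injected. By the treatment field, none of the 15 arrays came from mutants given PBS. A mutant stock also differs from wild type in whatever else its genome carries, so allele, stock and, for wild type with PBS, injected fluid cannot be told apart in this set. In whole larvae a smaller number of cells of a type and less RNA per cell cannot be told apart either.

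Relish, Dif and dorsal are the NF-kappaB transcription factors of the fly. Bacterial peptidoglycan of most Gram-negative species activates Relish through the Imd pathway, while Dif and dorsal act downstream of the receptor Toll, and dorsal also patterns the early embryo. A CG number is the identifier that the genome annotation gives to a predicted gene, and it stays in use where no other name has been assigned. Several members belong to known protein families, among them lipases, trypsin-like proteases and membrane transporters, and others have no role stated here.

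Mutant and wild type arrays differed in median signal and in how alike the arrays of a group were. The median signal of an array, on the scaled linear scale, was 284.85 to 340.5 on the 9 mutant arrays. On the 6 wild type arrays it was 245.5 to 282.8, with no overlap. On mutant arrays the mean correlation with the other arrays of the group was 0.882 to 0.9077. On wild type arrays it was 0.9172 to 0.9394, again with no overlap. Over the 11427 probe sets tested the median difference of log2(signal + 80) from wild type with E. coli was 0.09 in the Relish mutant, 0.11 in the Dif mutant and 0.10 in the dorsal mutant, and these comparisons share their controls. Scaling every array to one median kept 7 of the 14 higher members and 15 of the 15 lower members apart from wild type, and quantile normalization kept 9 and 10. The mean of each member stayed on the same side of wild type under both scalings. The 17 members that stayed apart under both were CG17191, CG16727, CG4362, CG18343, CG9577, CG14237 and CG5039 on the higher side and CG8160, CG5532, CG7694, CG10433, CG15203, CG16743, CG12375, CG6912, CG9451 and CG8004 on the lower side. As a check of the labels, Rel had signals of 18.9, 11.4 and 27.4 units in the Relish mutant and at least 373.5 on every other array, so it was low in its own mutant. Dif read 210, 213.8 and 204.3 units in the Dif mutant and 115.3 to 338.3 in wild type. The dl signals were 195.8, 180.1 and 414 in the dorsal mutant and 215.3 to 722.9 in wild type. Both overlapped wild type, so these probe sets do not check the Dif and dorsal labels.

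Before the limits on level and treatment, 27 CG probe sets were higher on all mutant arrays, which is 0.55% of those examined, and 16 were lower, or 0.326%. Over all non-control probe sets the shares were 0.508% and 0.358%. The limit of 300 removed 9 probe sets from the higher side and 0 from the lower side. Just inside it were CG43072, CG5986 and CG14237, with higher-side means of 513, 784 and 814 units, and CG7694, CG9451 and CG8004 with 745, 810.2 and 1259.8 units. Just outside were CG3701 at 267, CG12661 at 218 and CG3649 at 151 units. The limit on the treatment fold removed CG10031, CG43798, CG7900 and CG1635 from the higher side, at 1.545-, 7.6-, 1.5892- and 1.5005-fold, and CG9928 from the lower side at 1.79-fold. The members nearest to that limit were CG16727 at 1.45-fold, CG2493 at 1.42-fold and CG8160 at 1.41-fold.

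Among the higher members the lipase family gene CG17191, a relative of enzymes that cleave lipid esters, had wild type signals near the bottom of the scale. Its signal was 26.7, 31.5 and 27.6 units in PBS wild type and 34.4, 37.0 and 20.6 in E. coli wild type. It was 336.6, 596.1 and 713.7 in Relish larvae, 1397.4, 1350.2 and 1089.2 in Dif larvae and 1693.3, 1554.9 and 636.6 in dorsal larvae. Every wild type value was below the pseudocount of 80 that was added to all signals before logarithms were taken, and the lowest mutant value was far above it. The differences from wild type with E. coli on the log2(signal + 80) scale were 2.46, 3.61 and 3.53 (SE 0.36 each) in the Relish, Dif and dorsal mutants. No plain ratio is given, since the wild type signals were too low to set its size.

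CG16727 encodes a member of the SLC22 family of organic ion transporters. Its signals were 969.8, 549.5 and 519.3 units in PBS wild type and 698.3, 359.9 and 348.6 with E. coli. They were 2521.3, 1786.5 and 2326.4 in Relish larvae, 8647.2, 3821.9 and 5013.3 in Dif larvae and 5381.7, 4915.6 and 10785.4 in dorsal larvae. The mean over the mutant arrays was 8.75 times that over the wild type arrays, and the Relish arrays formed a level of their own between wild type and the other stocks without overlap on either side.

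Secreted and lysosomal peptidase families were represented by CG2493, CG3650 and CG16749. CG2493, of the prolylcarboxypeptidase family of serine peptidases, read 473.5, 1561.1 and 1022.5 units in PBS wild type, 457.8, 892.3 and 802.5 with E. coli, 2342.9, 2686.9 and 2450.6 in Relish larvae, 2560.9, 2554.0 and 1873.6 in Dif larvae and 5082.1, 4323.5 and 3363.3 in dorsal larvae. All dorsal values were above all Relish and Dif values. The trypsin-like protease gene CG3650 spanned 145.8 to 552.2 units in wild type and 650.0 to 1357.6 in the mutants, with all stocks overlapping. CG16749, another trypsin-like protease gene, read 5201.7, 5196.2 and 5554.6 in PBS wild type, 3844.6, 4490.7 and 4712.5 with E. coli, 11514.2, 13486.8 and 10323.2 in Relish larvae, 6266.8, 7300.6 and 6342.1 in Dif larvae and 8672.6, 7875.4 and 5640.6 in dorsal larvae. Here the Relish stock was the highest, and the lowest dorsal array lay just above the highest wild type array.

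Enzymes of other classes were also among the higher members. CG9577, of the enoyl-CoA hydratase and isomerase family that acts in fatty acid oxidation, spanned 757.9 to 1227.9 units in wild type and 1850.9 to 3913.4 in the mutants, a ratio of means of 2.48. CG14118, which belongs to a family of DNA/RNA non-specific endonucleases, spanned 169.5 to 433.3 and 499.7 to 1413.8 units, a ratio of 2.82. Both had their highest stock mean in the dorsal mutant, at 3261.3 ± 564.7 and 1062.5 ± 313.1 units (SD, n = 3).

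Roles are not stated for the other 7 higher members. CG4362 was measured at 9970.0, 9340.4 and 11575.4 units in PBS wild type and 6980.5, 7345.8 and 8660.4 with E. coli, against 21566.4, 21248.2 and 21640.5 in Relish larvae, 30183.5, 24935.1 and 25413.3 in Dif larvae and 45003.7, 33210.4 and 18058.2 in dorsal larvae. CG18343 spanned 1134.1 to 1698.0 units in wild type and 2608.0 to 3412.1 in the mutants. Its stock means of 3098.8 ± 209.7 for Relish, 2952.0 ± 407.2 for Dif and 2913.4 ± 370.2 for dorsal (SD, n = 3 each) were close together, and the arrays of the stocks overlapped. The remaining genes CG14237, CG5039, CG43072, CG5986 and CG14450 had ratios of mutant to wild type means of 1.57, 2.18, 2.04, 1.73 and 1.58. Of the 14 higher members, 10 had a ratio of at least 2 and 3 of at least 3, with a median of 2.33.

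**Figure D1:**
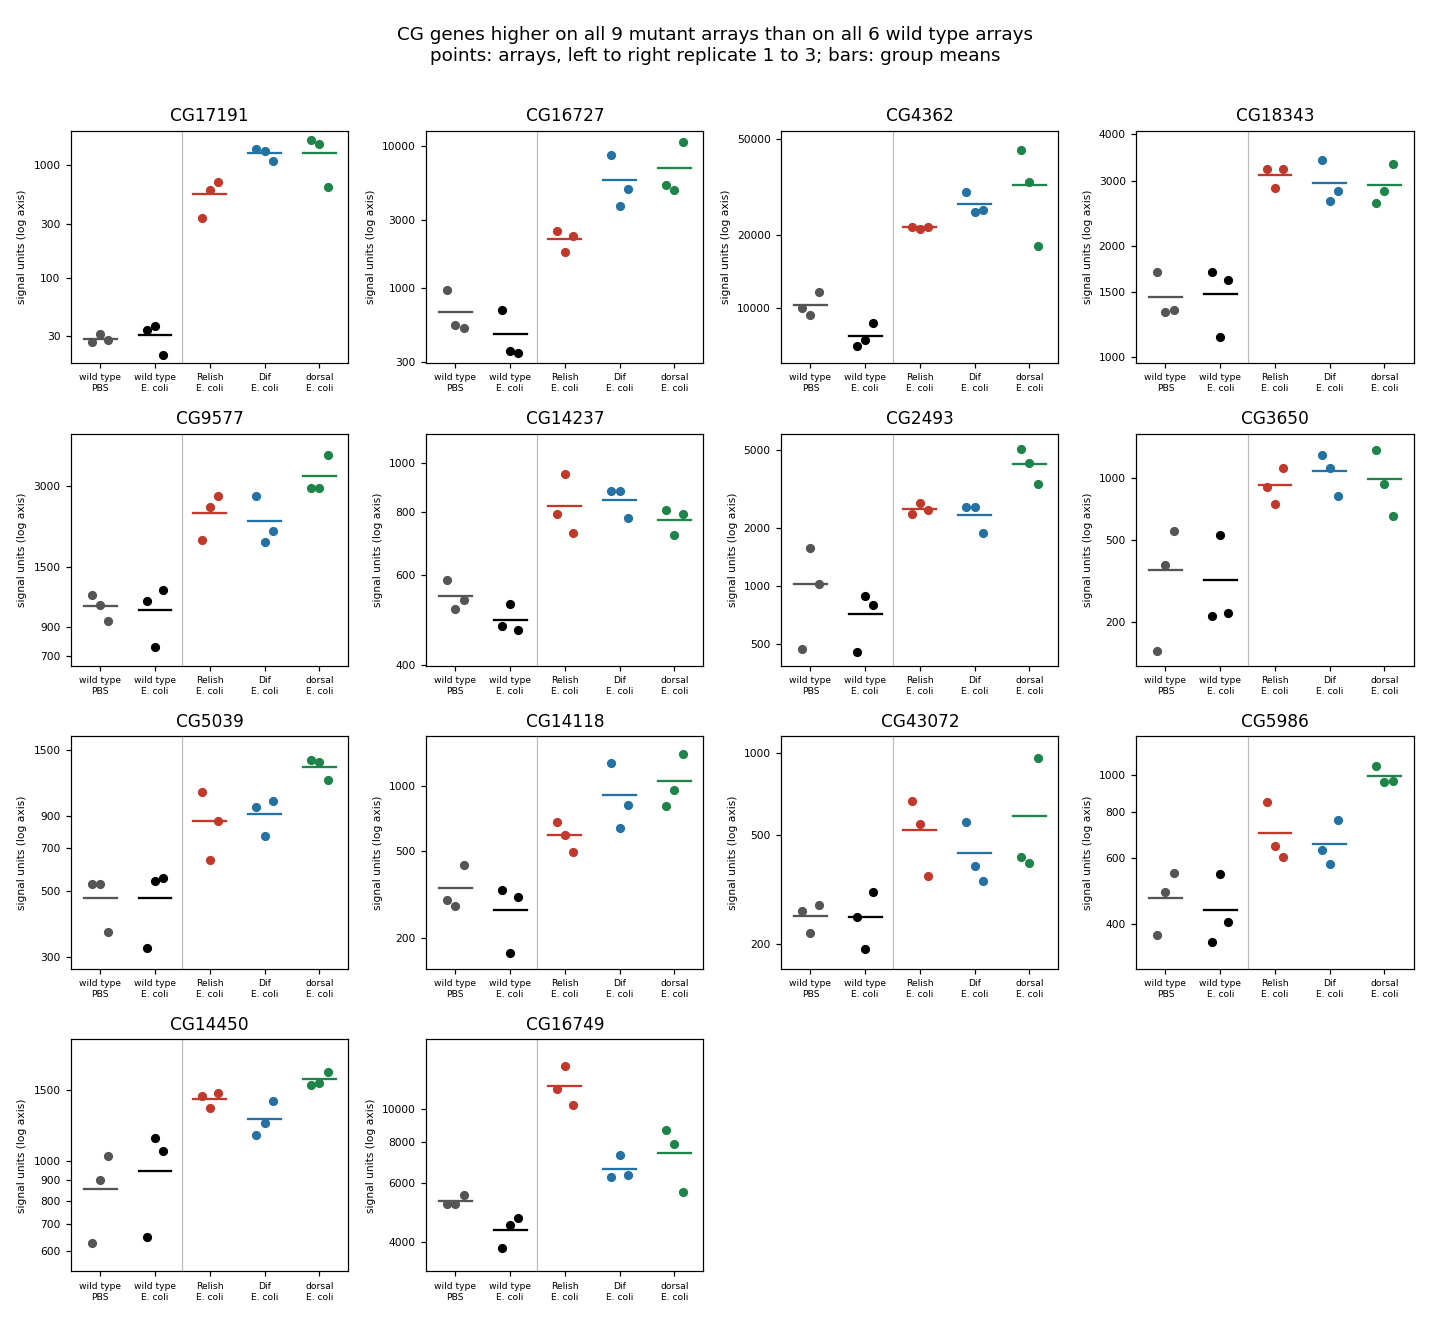
Signal of the 14 higher members on each array (vertical log axes in signal units, horizontal axis the 5 groups), with points for the 3 arrays of a group and a bar at the group mean. All 9 mutant points lie above all 6 wild type points by the choice of genes, and CG17191 stays at or below 37.0 units in wild type.

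The largest ratio of means among the lower members was that of CG8160, a gene with no role stated here. It read 4025.1, 9143.4 and 9963.7 units in PBS wild type and 2063.7, 6702.2 and 7590.7 with E. coli. In the mutants it read 793.8, 467.6 and 347.7 for Relish, 248.0, 197.5 and 41.0 for Dif and 1151.5, 591.5 and 639.2 for dorsal. The wild type mean was 13.2 times the mutant mean, and replicate 1 was the lowest of its group under both wild type treatments.

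Several lower members belong to enzyme families. CG7694, a RING finger protein of a family of ubiquitin ligases, read 607.6, 782.4 and 952.3 units with PBS and 643.8, 788.1 and 693.8 with E. coli in wild type, against 353.2, 86.2 and 162.3 in Relish larvae, 359.1, 427.6 and 450.5 in Dif larvae and 253.2, 144.4 and 69.1 in dorsal larvae. The Dif arrays were above all other mutant arrays. CG12375, of the metallo-beta-lactamase fold family, had wild type values close together, with 1375.6, 1471.3 and 1522.5 units with PBS and 1348.6, 1383.1 and 1303.3 with E. coli. Its mutant values ran from 522.1 to 1050.6, and those of the 3 stocks overlapped.

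CG9451, of the histidine acid phosphatase family, spanned 591.0 to 1223.4 units in wild type and 91.6 to 564.8 in the mutants. CG10512, of the malate and L-lactate dehydrogenase family, spanned 4312.1 to 6277.7 and 1710.8 to 4196.0 units. CG14630, related to the dioxygenases of carnitine synthesis, spanned 2166.7 to 3910.2 and 282.8 to 2122.2 units. In CG9451, CG10512 and CG14630 the lowest mutant array was dorsal mutant replicate 3, and the lowest wild type signal was 1.04, 1.03 and 1.02 times the highest mutant signal once 80 units were added to both.

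No role is stated for the other 9 lower members. CG5532 read 7530.9, 6566.7 and 6702.5 units with PBS and 8084.7, 6534.3 and 7253.2 with E. coli in wild type, against 2970.1, 3671.1 and 4560.5 in Relish larvae, 4135.4, 4192.1 and 4210.6 in Dif larvae and 3038.5, 3589.0 and 5020.5 in dorsal larvae. A further probe set of this gene had far lower signals, with group means of 161.4 and 86.3 units in PBS wild type and E. coli and 104, 163.5 and 120.1 in the Relish, Dif and dorsal mutants, and its arrays overlapped. It was the only further probe set of any member. CG10433 spanned 2621.3 to 4132.1 units in wild type and 1167.5 to 2034.2 in the mutants. CG15203 spanned 1635.7 to 2738.6 and 497.0 to 1297.9 units. Both had ratios near the middle of the lower set, at 1.92 and 2.31.

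CG16743, CG8206, CG6912, CG4962, CG14143 and CG8004 completed the lower set. Their wild type means were 2.01, 1.71, 1.40, 1.55, 3.23 and 1.42 times the mutant means. Of the 15 lower members, 7 had a ratio of at least 2 and 2 of at least 3, with a median of 1.92. The edges of the ranges nearly touched in CG8004, where the highest mutant array read 1040.4 units and the lowest wild type array 1044.4, and in CG14143, with 1079.0 and 1089.0. With 80 units added to both edges the gap was 1.1-fold or less in 8 lower members and in 4 higher members.

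**Figure D2:**
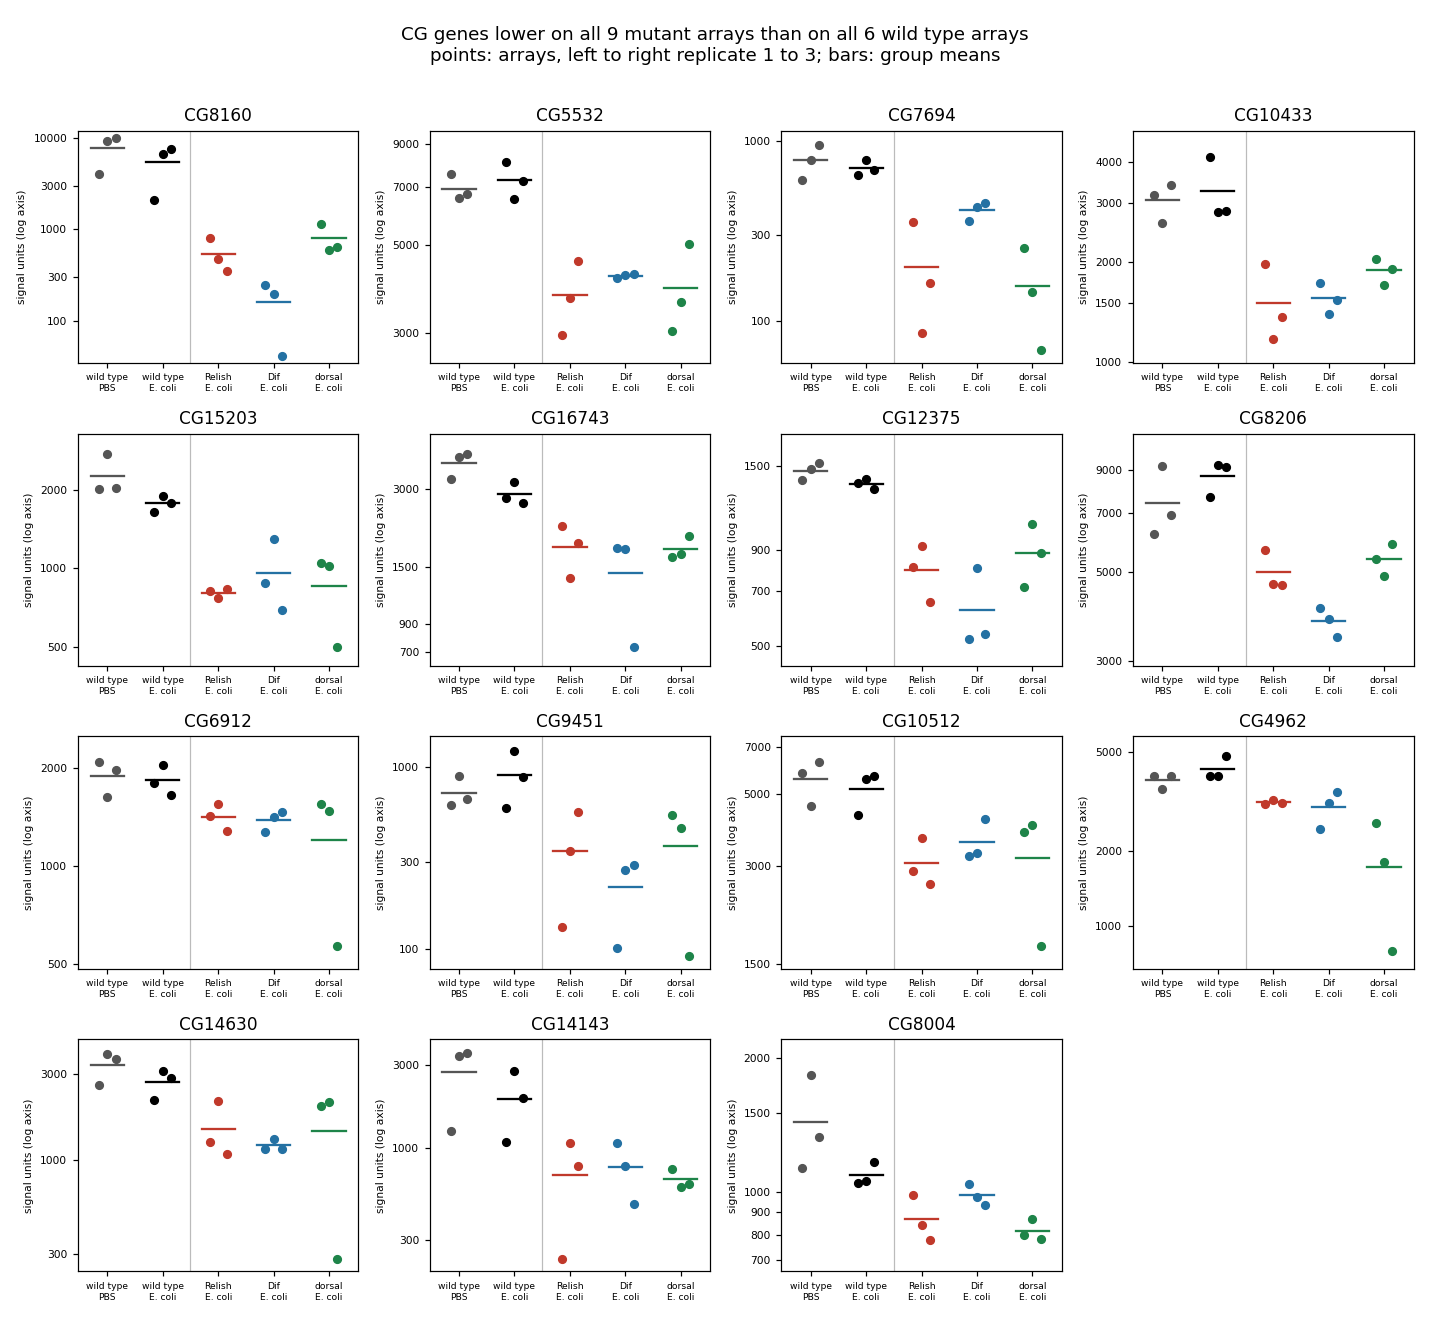
Signal of the 15 lower members on each array (vertical log axes in signal units, horizontal axis the 5 groups), with points for arrays and bars for group means. All 9 mutant points lie below all 6 wild type points by the choice of genes, with a 13.2-fold ratio of means in CG8160 and edges of 1040.4 and 1044.4 units in CG8004.

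Differences between the mutant stocks were not a criterion of the choice and were tested. The choice did use the same 9 mutant arrays, each of which had to clear wild type, and this limits how near to wild type any stock can lie. The limma model covered all 11427 probe sets that passed the filter on low signals, among them all 29 members, and p-values were adjusted over the whole table. In each of the 3 pairs of stocks 1 member passed an adjusted p of 0.05, against 1.15% of all probe sets for Relish against Dif, 3.05% for Relish against dorsal and 5.18% for Dif against dorsal. A single member among 29 is close to these background shares. Without adjustment, p was under 0.05 for 5, 7 and 7 of the 29 members, and for 1476, 1902 and 2357 of the 11427 probe sets.

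CG16727 was lower in the Relish mutant than in the dorsal mutant, at 2211.4 ± 380.7 against 7027.6 ± 3262.7 units (SD, n = 3 each). The log2 difference was -1.56 (SE 0.35, limma adjusted p = 0.0234), and no Relish array reached a dorsal array. The call rate over all probe sets was 1.48% for lower and 1.57% for higher in Relish. Against Dif the difference was -1.30 (SE 0.35, adjusted p = 0.0836), with no overlap of arrays and no call. The call against dorsal was lost without Relish mutant replicate 1 (adjusted p = 0.053) or 2 (adjusted p = 0.103) and without dorsal mutant replicate 3 (-1.20, adjusted p = 0.0776). It was also lost with the pair of dorsal arrays of one title number averaged (-1.73, adjusted p = 0.0644), without the variance trend (adjusted p = 0.0603) and with only these stocks in the fit (adjusted p = 0.0614).

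CG16749, the protease gene, was higher in the Relish mutant than in the Dif mutant, at 11775 ± 1597.8 against 6636.5 ± 576.4 units (SD, n = 3 each). The log2 difference was 0.81 (SE 0.19, limma adjusted p = 0.048), with all Relish arrays above all Dif arrays. The call rate over all probe sets was 0.656% for higher and 0.49% for lower in Relish than in Dif. Against dorsal it was 0.68 (SE 0.19, adjusted p = 0.0656). Leaving out any one of the Relish or Dif mutant arrays ended the call, with values of 0.71 to 0.90 and adjusted p between 0.0575 and 0.161. Other settings ended it too: no filter on low signals (adjusted p = 0.053), median centring (0.0923), no variance trend (0.135), averaged title numbers (0.0917) and only these stocks in the fit (0.0734).

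CG8160 was lower in the Dif mutant than in the dorsal mutant, at 162.2 ± 107.9 against 794.1 ± 310.5 units (SD, n = 3 each). The log2 difference was -1.92 (SE 0.48, limma adjusted p = 0.0285), again without overlap. Over all probe sets 2.84% passed as lower and 2.34% as higher in Dif. Relish lay between them, with a difference of 1.41 from Dif (SE 0.48, adjusted p = 0.187). The call was lost without Dif mutant replicate 2 (adjusted p = 0.0623) or 3 (-1.48, adjusted p = 0.119), without dorsal mutant replicate 1 (adjusted p = 0.115) or 2 (adjusted p = 0.0519), and with a pseudocount of 200 (adjusted p = 0.0523). It was lost as well without the variance trend (adjusted p = 0.0573), with averaged title numbers (adjusted p = 0.102) and with only these stocks in the fit (adjusted p = 0.0705).

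The uncalled members had intervals wide enough to hold sizeable differences between stocks. For CG17191 Relish minus Dif was -1.16 (95% interval -1.91 to -0.40, limma adjusted p = 0.133) and Relish minus dorsal -1.07 (95% interval -1.82 to -0.32, adjusted p = 0.121). Without dorsal mutant replicate 3 the second difference was -1.49 and was called (adjusted p = 0.0263), as was CG4362 at -0.85 (adjusted p = 0.0275). CG4962, at 1728.6 ± 905.4 units in the dorsal mutant, was 0.97 higher in Relish (95% interval 0.36 to 1.58, adjusted p = 0.0843) and 0.90 higher in Dif (95% interval 0.28 to 1.51, adjusted p = 0.0813), and both were called without dorsal mutant replicate 1 (1.33 and 1.25, adjusted p = 0.0236 and 0.0238). CG7694 was 1.14 higher in Dif than in dorsal (95% interval 0.36 to 1.91, adjusted p = 0.0806). For CG18343 the intervals were narrower, -0.36 to 0.51 for Relish minus Dif and -0.34 to 0.52 for Relish minus dorsal.

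The higher members had their highest stock mean in dorsal in 10 of 14 cases, in Relish in 2 and in Dif in 2. The marker lists read below were ranked by stock medians of summed signals, not by stock means as the members were, so a ranking by means can differ. By median, dorsal was the highest stock only in salivary glue, ecdysone response and male germline genes. The dorsal salivary glue sum had a median of 390240 units, against 279330 in Relish and 179780 in Dif. The dorsal ecdysone response sum had one of 4516.4, against 3205.2 and 3147.4. In both sums the dorsal arrays overlapped those of Relish and of Dif. In muscle genes dorsal had the lowest stock median, and in the other lists its median lay between those of Relish and Dif. For larval serum and fat body genes the dorsal and Relish medians were close, at 228170 and 229950 units. There the highest dorsal array read 350440 and the highest Relish array 283820. For midgut enzymes the lowest array of any stock was a dorsal one, at 761610 units. The part of these markers in the dorsal levels was not tested. Relish minus dorsal was negative in 11 of the 14, with a median of -0.46 where all probe sets tested had -0.01. In 8 of the 14 the arrays of Relish and dorsal did not overlap, and this was so in 20.4% of all probe sets. Dif minus dorsal had a median of -0.24 in the higher members and 0.03 over all probe sets, with no overlap in 5 of 14 members and in 24.4% of all. Relish minus Dif had medians of 0.02 and -0.03, with no overlap in 4 of 14 members and in 16.5% of all.

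In the lower members no stock stood lowest throughout. The lowest stock mean was in Dif for 6, in dorsal for 5 and in Relish for 4 of the 15. The medians were 0.03 for Relish minus Dif, -8e-04 for Relish minus dorsal and 0.14 for Dif minus dorsal. Over all probe sets tested these medians were -0.03, -0.01 and 0.03. Arrays did not overlap in 3, 1 and 4 of the 15 members in these pairs, and in 16.5%, 20.4% and 24.4% of all probe sets tested.

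**Figure D3:**
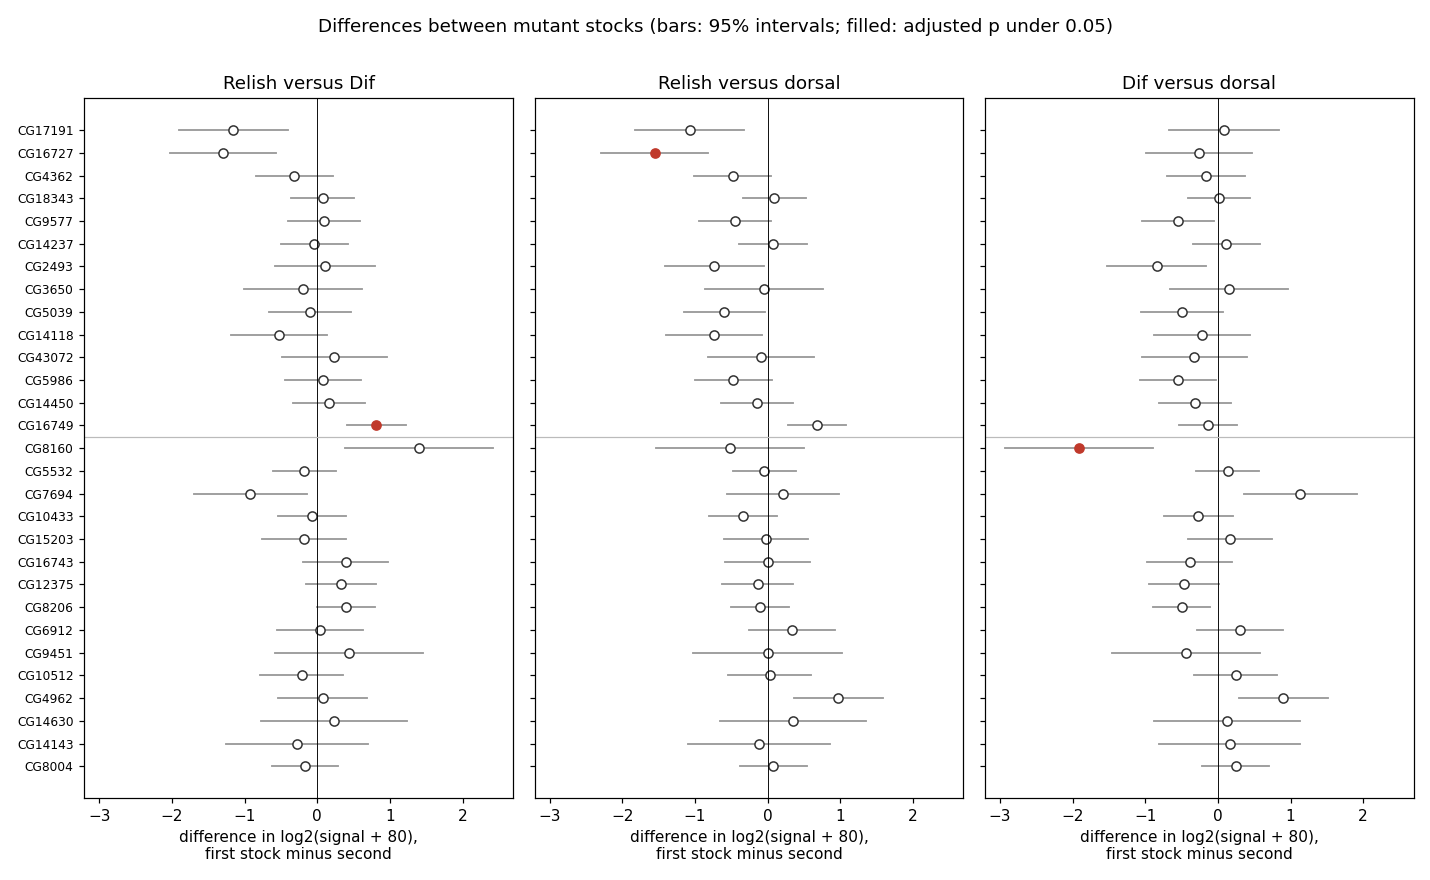
Differences in log2(signal + 80) between pairs of mutant stocks (horizontal axes) for the 14 higher members (upper rows) and the 15 lower members (lower rows), with points for estimates, bars for 95% intervals and filled points for adjusted p under 0.05. The filled points are CG16749 at 0.81, CG16727 at -1.56 and CG8160 at -1.92.

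The spread within a group was uneven between arrays. On dorsal mutant replicate 3 log2(signal + 80) stood farther from both other dorsal arrays than these stood from each other in 20 of the 29 members (69.0%), and in 46.6% of all probe sets tested. The other dorsal arrays share a title number. Among these 20 members replicate 3 was on the low side in CG17191, CG4362, CG2493, CG5039, CG16749, CG7694, CG15203, CG9451, CG14630, CG10512, CG6912 and CG4962. It was on the high side in CG16727, CG43072, CG18343, CG9577, CG14118, CG14450, CG5532 and CG16743. In CG6912, for example, it read 570.4 units where the other dorsal arrays read 1548.4 and 1474.1. Leaving this array out gave 20 higher and 16 lower members. The original members were all included, as they had to be, since fewer mutant arrays then had to clear wild type. Its part in the single results was not tested beyond the values given without it.

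Wild type arrays also differed by the number in their titles, which is 1 for replicate 1 and 2 for replicates 2 and 3 of both treatments. In 9 of the 29 members both arrays of number 1 were below all 4 arrays of number 2, and in 3 both were above. Over all probe sets tested these shares were 10.1% and 14%. Those below were CG8160, CG14143, CG14630, CG9451, CG7694, CG2493, CG3650, CG14450 and CG5986, and those above were CG16727, CG18343 and CG5532. In CG14143 the number 1 arrays read 1261.1 and 1089.0 units, against 3375.0 and 3477.3 with PBS and 2744.9 and 1932.3 with E. coli. The labels do not say what the number marks. The mutants were apart from both kinds of wild type array in every member, as the choice requires.

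Between the wild type treatments, which the choice held to less than 1.5-fold, the ratio of E. coli to PBS means ran from 0.69 to 1.11 in the higher members and from 0.71 to 1.24 in the lower ones. The PBS mean was the higher one in 11 of 14 and 10 of 15 members, and in 49% of all probe sets tested. No test was made of these ratios, since the choice of members used them.

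Position in the genome was not used in the choice. All 29 members were found in the RefSeq table of the Release 6 assembly, from which only chromosome arms and gene order were taken. Of the 14 higher members 7 lie on arm 3R, 3 on 3L, 2 on 2R, 1 on 2L and 1 on X. Of the 15 lower members 5 lie on 3L, 3 on 2R, 3 on X, 2 on 2L and 2 on 3R. Arm 3R holds 24.6% of the 3870 CG probe sets tested and is the arm of Rel, while Dif and dl lie on 2L, which holds 18.1%. The higher members on 3R were CG17191, CG16727, CG4362, CG14237, CG5039, CG5986 and CG16749. With 14 and 15 genes these shares are counts only.

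The genes directly beside the members gave another view, because related genes often lie next to each other in the fly genome. No member was adjacent to another. Of 58 adjacent protein-coding genes 50 had a probe set, and 50 probe sets of these passed the filter on low signals. None of them kept all mutant arrays apart from all wild type arrays, which over all non-control probe sets was the case for 0.508% upward and 0.358% downward, so a count of 0 among 50 is near the background. On the scale of log2(mean signal + 80), mutant over wild type, the adjacent probe sets had a median of 0.21 beside the higher members (range -0.46 to 1.30) and 0.08 beside the lower members (range -1.09 to 0.78), where all probe sets tested had 0.14. The members had medians of 1.13 and -0.91.

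Some of these pairs are members of one family. CG17192 and CG6283 flank CG17191 and are lipase genes as well. CG6283 had means of 9235.7 and 9942.4 units in PBS wild type and E. coli, 26779 in Relish larvae, 7049.9 in Dif larvae and 18854 in dorsal larvae. The Relish and dorsal means were above both wild type means and the Dif mean was below them. Single wild type arrays ran from 6177.7 to 14576 units, so the Dif mean lay within the wild type range. CG17192 stood at 147.6 and 88.0 units in wild type and 227, 218 and 158 in the Relish, Dif and dorsal mutants, with arrays overlapping.

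CG16727 lies between CG17752 and CG6231, both of the same transporter family. CG6231 had means of 196.9 units in PBS wild type, 1060.6 with E. coli, 170.6 in Relish larvae, 1048.9 in Dif larvae and 241 in dorsal larvae. CG17752 had its highest mean in the Relish mutant, at 3652.1 units, where CG16727 had its lowest among the stocks. The acid phosphatase genes CG9449 and CG9452 beside CG9451 ranged over 1486.1 to 5081.7 and 129.5 to 657.3 units on the mutant arrays and over 2748.6 to 5299.7 and 87.0 to 359.6 in wild type. CG8157, beside CG8160, was lower than wild type in mean in Relish (5272.5 units) and Dif (6437.7) and higher in dorsal (33027), against 12556 and 10867 in PBS wild type and E. coli. CG12951, a trypsin-like protease gene beside CG16749, had means of 1048.7 and 593 units in wild type with PBS and E. coli, 1099.1 in Relish, 2147 in Dif and 3147.6 in dorsal larvae, so that Relish had the lowest stock mean where CG16749 had its highest. Members of such families can share probe sequence, so single values in them are uncertain.

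**Figure D4:**
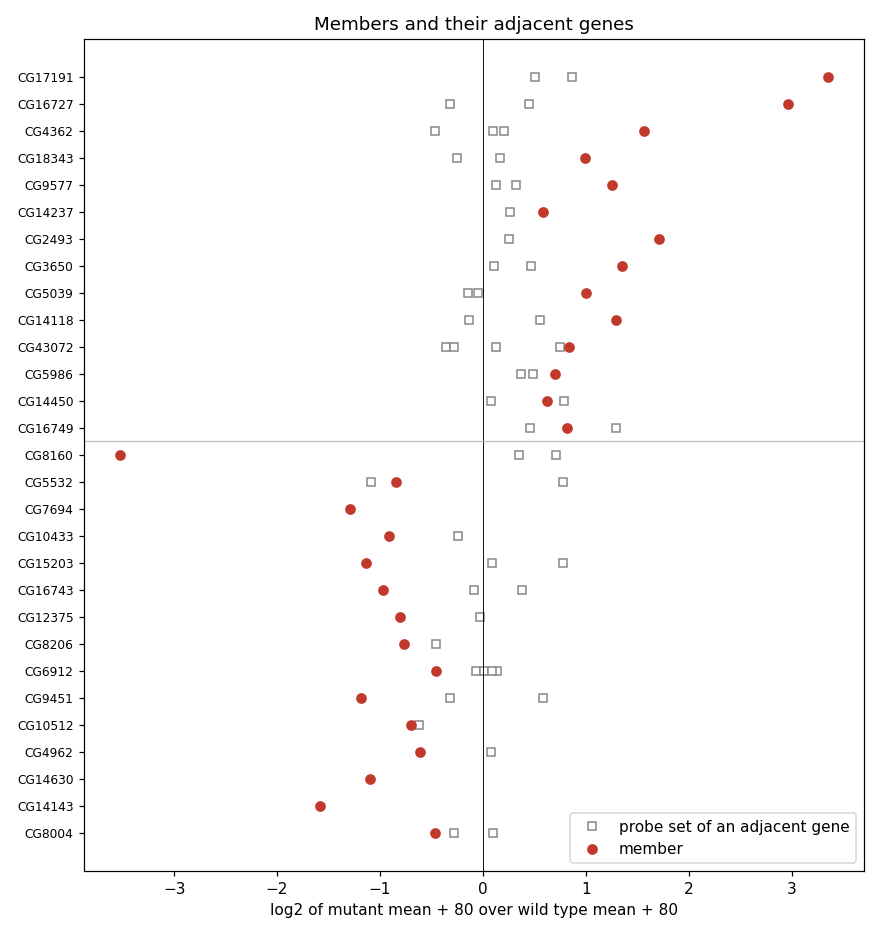
Mutant over wild type ratio, as log2 of means with 80 units added (horizontal axis), for each member (filled circles) and for the tested probe sets of its adjacent genes (open squares). The members reach 3.35 for CG17191 and -3.53 for CG8160, while the adjacent probe sets lie between -1.09 and 1.30.

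Tissue and stage markers were read beside the members, because pools of whole larvae can differ in age, sex and organ size, which the labels do not give per pool. The summed signals of 9 marker lists overlapped in every list when the 9 mutant arrays were set against the 6 wild type arrays, but single stocks stood apart in several. Each sum leans on the genes of highest signal in its list and need not hold for the others. The top genes were Sgs7, Sgs8 and Sgs3 for salivary glue and PPO2, PPO1 and Hml for hemocytes. For midgut enzymes they were LysB, LysC and LysD. Salivary glue genes (10 of 12 with a probe set) summed to 45836 to 646410 units on mutant arrays and 18293 to 288340 on wild type arrays, and the dorsal arrays alone, at 343050 to 646410, were above all wild type arrays. Within that list Sgs4 alone kept the arrays apart, with 615.2 to 70675.2 units in the mutants and 13 to 57.9 in wild type. Hemocyte genes (9 of 10) summed to 13168 to 34252 and 7182.4 to 13859 units. Relish stood at 28251 to 34252, above all other arrays, while Dif was at 13168 to 14670, dorsal at 13512 to 16334 and wild type with E. coli at 11302 or less. Midgut enzyme genes (22 of 25) summed to 761610 to 1281300 and 631900 to 1125500 units, and zetaTry was the single one of them with mutants apart, at 708.4 to 2313.7 against 2453.8 to 4467.7 units.

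Larval serum and fat body genes (3 of 6 with a probe set) summed to 141480 to 350440 units in the mutants and 102430 to 168780 in wild type, with dorsal at 218650 to 350440, above all wild type arrays. Male germline genes (16 of 18) summed to 8874.4 to 20260 and 7444.4 to 18950. Muscle genes (8 of 12) summed to 271140 to 388170 and 220620 to 367560 units. Ecdysone response genes (12 of 17) summed to 2833.9 to 10778 and 2206.4 to 3639.1 units, with dorsal at 4152 to 10778, again above all wild type arrays. Heat shock genes (4 of 12) summed to 31292 to 135190 units in the Dif mutant, 6626.7 to 19042 in dorsal, both above the 3641.5 to 6282 of wild type, and 3028.9 to 5631.5 in Relish. Antimicrobial peptide genes (6 of 14) summed to 4382 to 26837 units in the mutants, 11329 to 16246 in PBS wild type and 35350 to 58060 with E. coli. No listed gene was under 80 units on all arrays, and the part of these tissues in the members' signals was not tested.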

How the data were processed

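Each of the 15 arrays held RNA from pooled larvae. Per the labels, the authors made the deposited signal intensities with Microarray Suite 5.0 at default settings, with global scaling. After trimming 2% from either end, array means were 800.2 to 800.25. The authors' detection calls were not used here. Groups followed source names and treatment text.

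Signals were analysed as log2(signal + 80). Probe sets reaching 160 units on 3 or more arrays were tested. Group means over all 15 arrays were modelled with limma 3.58.1 in R 4.3.3 (lmFit, eBayes with a variance trend, two-sided moderated test, 10 residual degrees of freedom), with Benjamini-Hochberg adjustment over the 11427 probe sets tested. The fit was tested on simulated data. The labels do not say whether the pools within a group were separate cultures. The p-values then measure only the spread among pools, which may be technical. The number of arrays limits the precision.

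Members and marker lists were chosen with earlier results of these data known. All members are named. Gene names came from the platform annotation, and 12394 of 12443 probe sets with 1 symbol were found in RefSeq by Entrez identifier. The genome build of the array design was not given in the sources used here, and coordinates are left out.

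Alternatives covered the pseudocount, filter, normalization, variance model, array weights, replicate block, averaging of arrays with one title number, the limits of the rule, and leaving out each array or stock.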

Additional observations from a re-analysis of the deposited data

How the results depend on the processing

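The counts of called members rested on 1 member per pair and changed easily. For Relish against Dif the count was 0 without the filter, with median centring, without the variance trend, with only the 2 stocks in the fit and with averaging of arrays that share a title number, and 0 to 0 over the 6 fits without 1 array. For Relish against dorsal it was 0 without the variance trend, with only the 2 stocks and with averaged arrays, 2 with array weights, and 0 to 2 without 1 array. For Dif against dorsal it was 0 with a pseudocount of 200, without the trend, with only the 2 stocks and with averaged arrays, and 0 to 1 without 1 array. With the replicate number as a block the counts were 2, 1 and 1, where CG16727 was also called between Relish and Dif (adjusted p = 0.0408). Same-numbered arrays of different stocks deviated from their group means with correlations of -0.0884 to 0.153, so the numbers were not taken to pair the samples, and 3, 3 and 1 of 6 arrays correlated best with their own number in the 3 pairs of stocks. Of the alternatives run, 6 of 17 kept the call of CG16749, 11 of 17 that of CG16727 and 9 of 17 that of CG8160, none with a changed sign. The cause of the lost calls was not tested.

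The number of higher and lower members was 8 and 33 with arrays scaled to one median, 37 and 33 with averaged arrays, 36 and 40 without the Relish stock, 33 and 41 without the Dif stock and 65 and 42 without the dorsal stock, where fewer arrays had to be separated in the last 4 settings. Without 1 array the higher members numbered 14 to 22 (22 without wild type PBS replicate 1) and the lower members 16 to 25 (24 without Dif mutant replicate 2, 23 without dorsal mutant replicate 1, 25 without wild type E. coli replicate 1). Fewer arrays had to be separated here too. Some original members were lost without a wild type array, because the remaining means of the wild type treatments then broke the limit of 1.5-fold. Leaving out an array cannot undo the separation of mutants from wild type. CG16727 was lost without PBS replicate 2 or 3 or E. coli replicate 1. CG2493 and CG8160 were each lost without PBS replicate 1 or E. coli replicate 2 or 3. CG14143 was lost without PBS replicate 1 or E. coli replicate 2, and CG3650 without E. coli replicate 2. With quantile normalization there were 14 higher and 12 lower members, of which 9 and 10 were the original ones. Low signals limit CG17191, whose wild type values lay below 80 units.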
